A study of Mus musculus with 9 samples.

Results

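The genes described are 8 CC chemokines, Ccl2, Ccl5, Ccl7, Ccl9, Ccl20, Ccl25, Ccl27a and Ccl28, out of 57010 genes in the count table. They were taken by name, with earlier results of these data known, and each matched 1 Ensembl identifier. Their mRNA was counted by sequencing total RNA from mixed primary cultures of digested kidneys of wild-type mice. Of the 3 groups, each of 3 libraries sampled after 6 h, 1 received PBS, 1 received 20 ng/mL TNF (tumour necrosis factor), and 1 received 20 ng/mL TNF together with 1 µM ACHP, an inhibitor of the IKK kinase that activates the transcription factor NF-kB. All 9 cultures were grown in medium with serum, and no group with ACHP alone was analysed here. The study asks how TNF, with and without NF-kB blockade, makes renal cells hold on to immune cells. The labels do not tell whether replicates are separate animals, so p-values measure the spread between these libraries, which may be technical.

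CC chemokines are small secreted proteins with a pair of adjacent cysteines near the start of the mature protein. They bind receptors of the Ccr family on leukocytes and guide those cells along a gradient into tissue. Inflammatory members such as Ccl2 are made on demand by many cell types, and in kidney tubules TNF and NF-kB are known to switch Ccl2 on. Homeostatic members such as Ccl25, Ccl27a and Ccl28 are made steadily by particular epithelia.

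The feature that gives the family its name is shown for the 4 members whose mRNA changed. For each of the 8 the longest coding sequence with a pair of adjacent cysteine codons was taken, and each held only 1. The windows below are 30 bases of coding sequence, 5′ to 3′, from GENCODE transcripts on GRCm38, with the adjacent pair in capitals. The Ccl2 window lies at chr11:82036494-82036523 (plus strand), the Ccl7 window at chr11:82046526-82046555 (plus), the Ccl9 window at chr11:83575914-83575943 (minus) and the Ccl20 window at chr1:83117801-83117830 (plus).
Ccl2: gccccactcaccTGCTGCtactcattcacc
Ccl7: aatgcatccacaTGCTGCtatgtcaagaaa
Ccl9: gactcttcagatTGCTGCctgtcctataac
Ccl20: agcaactacgacTGTTGCctctcgtacata
Ccl2, Ccl7 and Ccl9 use TGC for both cysteines, and Ccl20 uses TGT for the first and TGC for the second. The pair sits at codons 34 and 35 in Ccl2, 33 and 34 in Ccl7, 32 and 33 in Ccl20, and 57 and 58 in Ccl9, whose coding sequence before the pair is the longest of the 4.

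Promoter sequence was at hand for 5 of the 8 members from RefSeq (GRCm38.p6). It is shown for Ccl20 and Ccl9, which changed, and for Ccl28, which did not pass any test, as the 250 bases before the annotated start. The motif searched on both strands was GGGNNNNNCC, with its reverse complement GGNNNNNCCC, a loose form of the sequence that NF-kB dimers bind. Capitals mark each match, and overlapping matches run together. The windows are chr1:83116516-83116765 (plus) for Ccl20, chr11:83578637-83578886 (minus) for Ccl9 and chr13:119623569-119623818 (plus) for Ccl28.
Ccl20: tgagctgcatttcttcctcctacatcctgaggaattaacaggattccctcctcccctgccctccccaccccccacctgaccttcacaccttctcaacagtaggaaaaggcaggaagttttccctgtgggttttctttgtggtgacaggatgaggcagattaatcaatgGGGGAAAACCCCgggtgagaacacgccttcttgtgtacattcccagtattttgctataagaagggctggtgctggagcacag
Ccl9: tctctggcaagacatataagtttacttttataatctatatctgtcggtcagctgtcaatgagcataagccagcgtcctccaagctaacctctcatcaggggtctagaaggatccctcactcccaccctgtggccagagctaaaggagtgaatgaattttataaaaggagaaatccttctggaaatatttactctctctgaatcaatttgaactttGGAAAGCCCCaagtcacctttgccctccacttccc
Ccl28: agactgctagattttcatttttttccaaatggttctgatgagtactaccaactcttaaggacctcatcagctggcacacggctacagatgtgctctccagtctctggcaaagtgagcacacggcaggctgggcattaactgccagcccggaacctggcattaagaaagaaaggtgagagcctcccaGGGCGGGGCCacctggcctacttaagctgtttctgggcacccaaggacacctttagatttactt
Ccl20 held 3 overlapping matches, which together span bases -82 to -71 before the start. Ccl9 held 1 match at -35 to -26 and Ccl28 held 1 at -64 to -55. The loose motif occurred in 45.8% of 32841 mouse promoters of the same length, so a match is common. A stricter NF-kB consensus occurred in 7.3% of them, and Ccl20 and Ccl9 each held 1 such match while Ccl28 held 0. Of the other members in the table, Ccl25 had 0 loose matches in both of its promoters. Ccl27a, in 3 annotated promoters, had 0, 2 and 1, with 0 strict matches in any. These are letter matches only, and no binding was measured.

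Library totals lay between 14194295 and 20892176 counts. The libraries were not alike in every respect before any chemokine is considered. PBS replicates 2 and 3 and all TNF libraries held 43.1 to 101 CPM (counts divided by library size after TMM scaling) of a list of 12 neuron genes, and PBS replicate 1 and all ACHP libraries held 17.7 to 19.8. The CC chemokines were also fitted with terms for these transcripts, and a call that was then lost is given beside its result. The other genes named were not refitted in this way.

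TNF raised Ccl2, Ccl7, Ccl9 and Ccl20, which draw monocytes, macrophages, dendritic cells and lymphocytes. The other 4 members, Ccl5, Ccl25, Ccl27a and Ccl28, did not pass the test. With ACHP present the same 4 genes were lower than with TNF alone. Of 19 alternatives, that call held in all for Ccl2 and Ccl20, in 18 for Ccl7 and in 17 for Ccl9. The fits that lost it were those with terms for neural transcripts. Against PBS, Ccl20 was the 1 member called with ACHP, a call that 5 of the alternatives tried lost. Not all of those 5 are separate checks, as given below. Ccl7 had a larger fold over PBS with a wider interval. With TNF, 4 of 8 were called higher and 0 lower (edgeR quasi-likelihood test, Benjamini-Hochberg adjusted p under 0.05), where 6.22% of all 14747 genes tested were called, 3.31% higher and 2.91% lower. With ACHP against TNF 0 of 8 were higher and 4 lower, where 7.17% of all genes were called, 2.71% higher and 4.46% lower. With TNF and ACHP against PBS 1 of 8 was higher and 0 lower, where 6.04% of all genes were called, 2.18% higher and 3.87% lower. The counts of 0 were also 0 at an unadjusted p under 0.05 and with DESeq2. The median log2 fold change of the 8 was 1.10, -0.85 and 0.20 in the 3 comparisons, and over all genes it was -0.002, 0.003 and 0.005. The first and second comparison share the TNF libraries, and the first and the last share the PBS libraries. Of the 8, 4 differed among the 3 groups in a joint test, against 11.4% of all genes.

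All 8 members passed the filter on low counts, which needs about 0.61 CPM in 3 libraries. For Ccl5 and Ccl7 it was passed through the TNF and ACHP libraries, since 1 of 3 PBS libraries reached that level in each. The other 6 reached it in all 9 libraries.

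**Figure D1:**
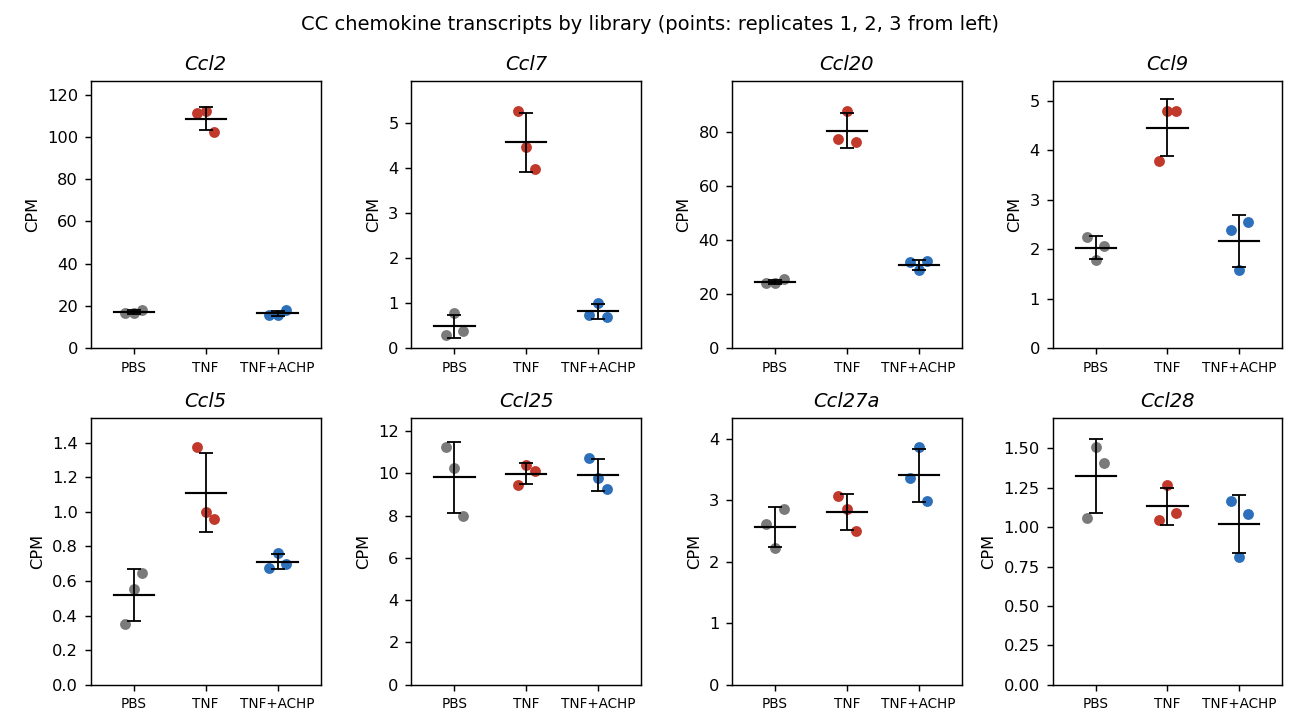
Level of each CC chemokine in CPM (vertical axis, from 0, its own scale per gene) in the PBS, TNF and TNF with ACHP groups. Points are libraries, the wide line is the mean and the bars are 1 SD (n = 3). The TNF points of Ccl2, Ccl7, Ccl20 and Ccl9 lie above all points of both other groups, and the groups of Ccl25 and Ccl28 overlap.

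Ccl2, the main attractant of monocytes through the receptor Ccr2, lies on chromosome 11 (ENSMUSG00000035385, GRCm39, 81926397 to 81928279, plus strand). Its counts were 237, 300 and 336 in the PBS libraries, 2026, 1687 and 1597 in the TNF libraries and 254, 331 and 280 in the ACHP libraries. Every TNF library stood far above the other 6 libraries, and the PBS and ACHP libraries overlapped. As CPM this was 17.2 ± 0.84 (SD, n = 3) in the PBS libraries, 108.6 ± 5.53 in the TNF libraries and 16.4 ± 1.26 in the ACHP libraries. The 6.30-fold rise with TNF had a log2 fold change of 2.66 (SE 0.06, edgeR adjusted p = 2.37e-16). ACHP against TNF gave -2.73 (SE 0.06, edgeR adjusted p = 1.41e-16). ACHP against PBS gave -0.08 with a 95% interval from -0.24 to 0.09 (edgeR adjusted p = 0.68).

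Ccl7, a monocyte chemokine closely related to Ccl2, starts 8.3 kb after the end of Ccl2 on the same strand (ENSMUSG00000035373, 81936538 to 81938351). Its counts were low, at 4, 14 and 7 in the PBS libraries, 96, 67 and 62 in the TNF libraries and 12, 21 and 11 in the ACHP libraries. The TNF libraries did not overlap with the rest, while the PBS and ACHP libraries overlapped. Its level was 0.48 ± 0.26 CPM (SD, n = 3), 4.57 ± 0.66 and 0.81 ± 0.16 in the same order. The TNF log2 fold change of 3.20 (SE 0.31, edgeR adjusted p = 1.32e-06) is a 9.19-fold rise, with an interval from 2.54 to 3.86 on the log2 scale. It was 3.74 without PBS replicate 2 and 3.99 with PBS replicate 1 as the only PBS library (edgeR adjusted p = 7.8e-06). ACHP against TNF gave -2.46 (SE 0.29, edgeR adjusted p = 1.28e-05). That call was lost with a term for libraries that hold neural transcripts (-1.45, edgeR adjusted p = 0.56), as described below. ACHP against PBS gave 0.74 with an interval from -0.07 to 1.55 (edgeR adjusted p = 0.32).

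The other genes of the Ccl2 cluster gave next to nothing. The eosinophil chemokine Ccl11 and the gene Ccl1 had 0 counts in all 9 libraries, Ccl8 had 1 count and Ccl12 had 2. A library with 0 counts allows a level of up to 0.144 to 0.211 CPM, taken as 3 counts and covering counting error only. Per Ccl2 count there were 0.017, 0.047 and 0.021 Ccl7 counts in the PBS libraries, 0.047, 0.040 and 0.039 in the TNF libraries and 0.047, 0.063 and 0.039 in the ACHP libraries. The Ccl7 to Ccl2 ratios overlapped between groups, with two-sided exact permutation p = 0.30, 0.50 and 0.20 for TNF against PBS, ACHP against TNF and ACHP against PBS, where 0.10 is the smallest value that 3 against 3 can give.

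Ccl20, the ligand of Ccr6 on dendritic cells and on Th17 and regulatory T cells, lies on chromosome 1 (ENSMUSG00000026166, 83094487 to 83096888, plus strand). Its counts were 344, 433 and 471 in the PBS libraries, 1409, 1319 and 1193 in the TNF libraries and 517, 603 and 503 in the ACHP libraries. In CPM the PBS libraries ran from 24.1 to 25.5, the ACHP libraries from 28.8 to 32.1 and the TNF libraries from 76.4 to 87.9, so the 3 groups did not overlap. The means were 24.6 ± 0.75 CPM (SD, n = 3), 80.5 ± 6.36 with TNF and 30.8 ± 1.81 with TNF and ACHP. TNF gave a log2 fold change of 1.71 (SE 0.06, edgeR adjusted p = 4.76e-13), or 3.26-fold, and ACHP against TNF gave -1.39 (SE 0.06, edgeR adjusted p = 8.78e-12).

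With TNF and ACHP, Ccl20 was 0.32 above PBS on the log2 scale (SE 0.07, interval 0.17 to 0.47, edgeR adjusted p = 0.0093), or 1.25-fold. This was the 1 call among the members in that comparison. It was lost when PBS replicate 2 was left out (0.30, edgeR adjusted p = 0.051) and when ACHP replicate 3 was left out (0.29, edgeR adjusted p = 0.054), with the value little moved. It was also lost with a term for libraries that hold neural transcripts (0.34, edgeR adjusted p = 0.17) and with the level of those transcripts as a covariate (0.39, edgeR adjusted p = 0.093). The call was lost as well with PBS replicate 1 as the only PBS library (0.34), whose spread is then taken from the other groups. For this comparison the term also sets the ACHP libraries against PBS replicate 1, so those fits are not separate checks. As a share of the TNF increment over the PBS mean, 11.1% was left for Ccl20 with ACHP, 8.1% for Ccl7, 5.7% for Ccl9 and -0.9% for Ccl2. These are ratios of group means without an error, and their order was not tested. Of these genes, Ccl7, Ccl9 and Ccl2 did not pass the test for ACHP against PBS.

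Ccl9, a mouse chemokine for Ccr1-bearing myeloid cells, lies on chromosome 11 (ENSMUSG00000019122, 83463745 to 83469462, minus strand), 42.4 kb beyond Ccl5. Its counts were 32, 32 and 38 in the PBS libraries, 69, 72 and 75 in the TNF libraries and 39, 33 and 40 in the ACHP libraries. Each TNF library was above the other 6, and the PBS and ACHP libraries overlapped. Its level was 2.03 ± 0.24 CPM (SD, n = 3) in the PBS libraries, 4.46 ± 0.58 in the TNF libraries and 2.17 ± 0.52 in the ACHP libraries. TNF gave a 2.19-fold rise, or 1.13 on the log2 scale (SE 0.22, edgeR adjusted p = 0.0034). ACHP against TNF gave -1.05 (SE 0.22, edgeR adjusted p = 0.0053), and ACHP against PBS gave 0.08 with an interval from -0.42 to 0.59 (edgeR adjusted p = 0.91). The call for ACHP against TNF was lost in both fits with terms for neural transcripts, as given below.

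Terms for neural transcripts changed some calls of Ccl7 and Ccl9 for ACHP against TNF, and none of Ccl2 and Ccl20 with TNF or with ACHP against TNF. With the neural library term ACHP against TNF gave -1.45 (SE 0.94, edgeR adjusted p = 0.56) for Ccl7 and -1.29 (edgeR adjusted p = 0.20) for Ccl9. All TNF libraries are high and all ACHP libraries low in those transcripts, so that fit leans on PBS replicate 1, and the SE for Ccl7 is 0.94 in place of 0.29. With the neuron covariate Ccl7 kept its call at -2.19 (SE 0.55, edgeR adjusted p = 0.040), and Ccl9 gave -1.10 (edgeR adjusted p = 0.12). With TNF against PBS Ccl9 kept its call with the covariate, at 1.14 (edgeR adjusted p = 0.0025). With the term it gave 1.21 (edgeR adjusted p = 0.0038), but in that comparison the term only sets PBS replicate 1 aside. Leaving that library out gave 1.21 too (edgeR adjusted p = 0.0037), so the term is no adjustment for neural transcripts there. With PBS replicate 1 as the only PBS library, where the spread of PBS is taken from the other groups, the TNF value of Ccl9 was 0.97 (SE 0.32, edgeR adjusted p = 0.11).

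**Figure D2:**
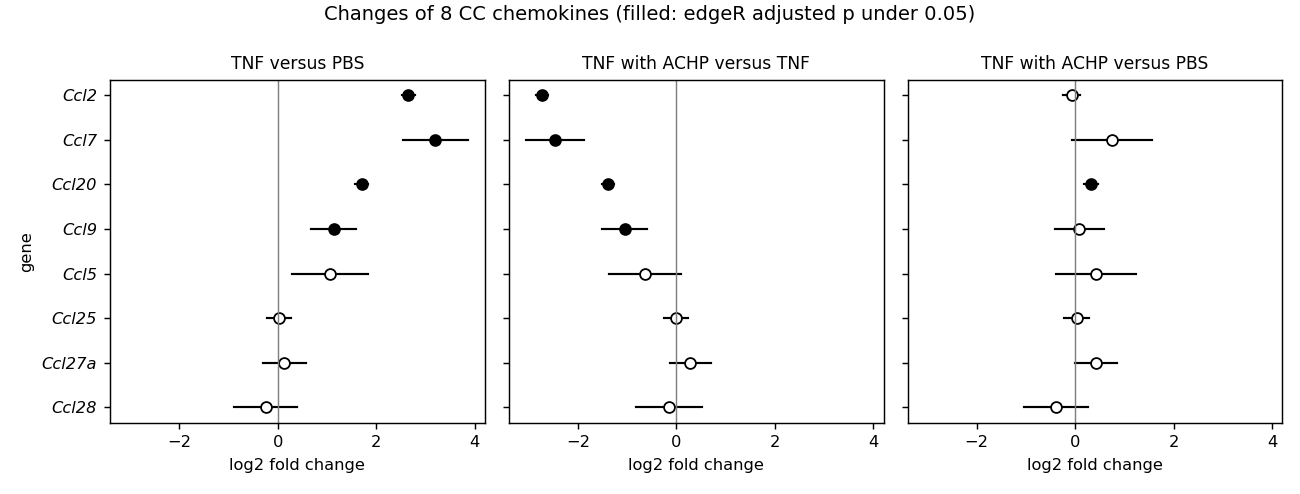
Log2 fold change (horizontal axis) of each CC chemokine in the 3 comparisons, with lines for the 95% interval of the edgeR fit and filled points for adjusted p under 0.05. Ccl2, Ccl7, Ccl20 and Ccl9 are filled right of 0 with TNF and left of 0 for ACHP against TNF, and Ccl20 is the 1 filled point for ACHP against PBS.

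Ccl5, which attracts T cells and monocytes, was near the limit of what these libraries can measure (ENSMUSG00000035042, chromosome 11, 83416604 to 83421344, minus strand). Its counts were 5, 10 and 12 in the PBS libraries, 25, 15 and 15 in the TNF libraries and 11, 16 and 11 in the ACHP libraries. In CPM these were 0.35 to 0.65, 0.96 to 1.37 and 0.67 to 0.76, so the groups did not overlap, with TNF highest. The log2 fold change with TNF was 1.07 (SE 0.37, interval 0.29 to 1.84), with an unadjusted p of 0.0094 and an edgeR adjusted p of 0.10. ACHP against TNF gave -0.64 (interval -1.37 to 0.09, edgeR adjusted p = 0.32). Over the alternatives tried that value ran from -0.73 to 0.12.

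In the second chromosome 11 cluster, around Ccl5 and Ccl9, the macrophage chemokines Ccl3 and Ccl4 had 11 and 10 counts over all 9 libraries. Ccl6, a close relative of Ccl9 that lies 9.2 kb beyond it, had 91 counts over the PBS libraries, 95 over the TNF libraries and 55 over the ACHP libraries. Its log2 fold change was 0.12 with TNF (edgeR adjusted p = 0.89) and -0.92 for ACHP against TNF (edgeR adjusted p = 0.087), so unlike Ccl9 it passed neither test. The difference between both genes was not tested.

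Of the 3 homeostatic members, 0 passed the test in any comparison (edgeR and DESeq2, and at an unadjusted p under 0.05). Of all genes, 6.22% were called with TNF, 7.17% for ACHP against TNF and 6.04% for ACHP against PBS (edgeR). With so few called, 0 of 3 does not set these members apart from other genes. Ccl25, which guides T cell precursors and gut lymphocytes through Ccr9, is on chromosome 8 (ENSMUSG00000023235, 4375210 to 4410020, plus strand) and shares 2.7% of its exon bases with Elavl1. Its counts were 159, 184 and 147 in the PBS libraries, 172, 156 and 158 in the TNF libraries and 175, 205 and 145 in the ACHP libraries. All 3 groups overlapped, at 9.81 ± 1.68, 9.99 ± 0.49 and 9.92 ± 0.75 CPM (SD, n = 3). The log2 fold change with TNF was 0.03 with an interval from -0.21 to 0.28 (edgeR adjusted p = 0.92), and for ACHP against TNF it was -0.01 with an interval from -0.25 to 0.24 (edgeR adjusted p = 0.98).

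Ccl27a, the skin chemokine that binds Ccr10, is on chromosome 4 (ENSMUSG00000073888, 41769467 to 41774247, minus strand). Its counts were 37, 40 and 53 in the PBS libraries, 56, 43 and 39 in the TNF libraries and 55, 81 and 47 in the ACHP libraries. The ACHP libraries, at 3.00 to 3.86 CPM, lay above the PBS libraries, at 2.23 to 2.87 CPM, and both overlapped with the TNF libraries. ACHP against PBS gave a log2 fold change of 0.42 (SE 0.20, interval -0.01 to 0.84, edgeR adjusted p = 0.27), and TNF gave 0.13 (interval -0.30 to 0.57, edgeR adjusted p = 0.81). These counts are uncertain, because 45.0% of its 50-base stretches also occur in transcripts of other genes, among them Ccl27b, and reads that align to several places were not counted. Ccl27b itself had 0 counts.

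Ccl28, a chemokine of mucosal epithelia that binds Ccr10 and Ccr3, is on chromosome 13 (ENSMUSG00000074715, 120085355 to 120115895, plus strand). Its counts were 15, 27 and 26 in the PBS libraries, 19, 19 and 17 in the TNF libraries and 19, 17 and 17 in the ACHP libraries. The groups overlapped at 1.32 ± 0.23, 1.13 ± 0.12 and 1.02 ± 0.19 CPM (SD, n = 3). The log2 fold change was -0.24 with TNF (interval -0.88 to 0.40, edgeR adjusted p = 0.76) and -0.40 for ACHP against PBS (interval -1.05 to 0.25, edgeR adjusted p = 0.55).

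Per length, as CPM per kb of exon, Ccl20 and Ccl2 led the 8 members in every library. That length counts every annotated exon base of a gene, 7445 for Ccl25, so it can exceed the length of 1 transcript. Reads that Ccl27a shares with other genes were not counted, so its rank is uncertain. With PBS the order of mean levels was Ccl20 (17.3 ± 0.52, SD, n = 3), Ccl2 (15.1 ± 0.74), Ccl25 (1.32 ± 0.23), Ccl27a (1.08 ± 0.14), Ccl9 (0.67 ± 0.08), Ccl7 (0.60 ± 0.33), Ccl5 (0.54 ± 0.16) and Ccl28 (0.27 ± 0.05). Ccl25 and Ccl27a overlapped there, as did Ccl9, Ccl7 and Ccl5. With TNF, Ccl2 came first at 95.5 ± 4.86 CPM per kb, ahead of Ccl20 at 56.7 ± 4.48, and Ccl7 came next at 5.70 ± 0.82. Behind them Ccl9, Ccl25, Ccl27a and Ccl5 lay between 1.16 and 1.47 with overlapping libraries, and Ccl28 was last at 0.23 ± 0.02. With TNF and ACHP, Ccl20 was first again at 21.7 ± 1.27 CPM per kb and Ccl2 followed at 14.4 ± 1.10, without overlap. Ccl27a, Ccl25 and Ccl7 came next, at 1.43 ± 0.18, 1.33 ± 0.10 and 1.01 ± 0.21, each overlapping with its neighbour.

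The make-up of the CC chemokine mRNA differed between groups as well as its sum. The summed level of the 8 was 36.1 to 38.3 CPM per kb with PBS, 154 to 172 with TNF and 39.8 to 43.4 with TNF and ACHP. Ccl2 made up 40.3 to 41.7% of that sum with PBS, 57.5 to 59.5% with TNF and 33.0 to 36.1% with TNF and ACHP. Ccl20 made up 46.6 to 47.4%, 33.2 to 36.0% and 50.9 to 53.8% in the same order.

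The ratio of Ccl2 to Ccl20 counts needs no scaling between libraries. It was 0.689, 0.693 and 0.713 in the PBS libraries, 1.44, 1.28 and 1.34 in the TNF libraries and 0.491, 0.549 and 0.557 in the ACHP libraries. The 3 groups did not overlap, and the ACHP libraries lay below the PBS libraries as well as below the TNF libraries. The group means were 0.698 ± 0.013, 1.35 ± 0.08 and 0.532 ± 0.036 (SD, n = 3). Each pair of groups gave a two-sided exact permutation p of 0.10, the smallest that 3 against 3 allows, and 0.20 after adjustment over the 6 ratio tests made.

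**Figure D3:**
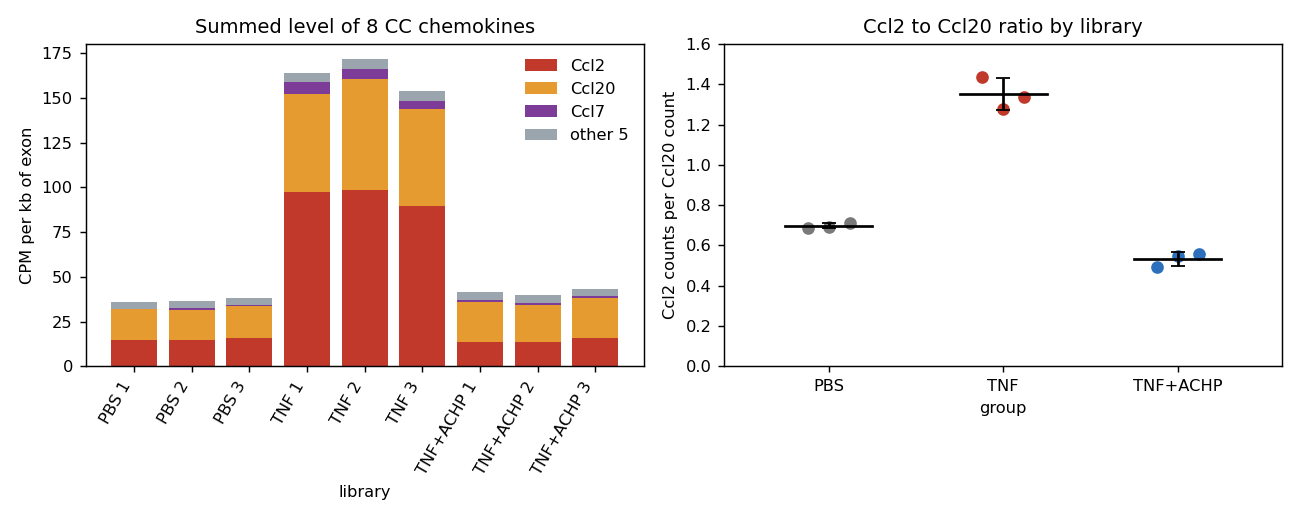
Left, summed level of the 8 CC chemokines in CPM per kb of exon (vertical axis) in each library, split into Ccl2, Ccl20, Ccl7 and the other 5. Right, Ccl2 counts per Ccl20 count by library, with the mean and 1 SD (n = 3). The TNF bars reach 154 to 172 and are mostly Ccl2, and the ratio is highest with TNF and lowest with TNF and ACHP.

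Of the 15 other CC chemokines looked up, 7 had 0 counts in all 9 libraries and 4 had 1 to 10 counts. Only Ccl6 passed the filter. Of 15 CC receptors and decoy receptors of the family, only Ccr1 passed it. Ccr2, the Ccl2 receptor, had 1 count in all libraries together, and Ccr6, the Ccl20 receptor, had 0. Ccr1, a receptor of Ccl5, Ccl7 and Ccl9 on myeloid cells, gave 10, 20 and 19 counts in the 3 libraries given PBS, 16, 17 and 10 in the TNF libraries and 1, 1 and 3 in the ACHP libraries. It was lower with ACHP than with TNF by a log2 fold change of -3.12 (SE 0.57, edgeR adjusted p = 0.0015) and than with PBS by -3.24 (SE 0.56, edgeR adjusted p = 0.0013), and TNF against PBS gave -0.12 (edgeR adjusted p = 0.91). The ACHP level of Ccr1 rests on 5 counts in all, so the size of its change is uncertain.

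Markers of other cells moved with ACHP as well, and these cultures are mixed. The kidney epithelium list of 8 genes summed to 4860 to 4920 CPM in the PBS libraries, 4730 to 4770 in the TNF libraries and 5010 to 5350 in the ACHP libraries, so epithelial transcripts were abundant. In the collecting duct list Aqp2 had 0 counts, Atp6v1b1 3 and Aqp3 27, while Scnn1a had 5701, Hsd11b2 1345, Scnn1b 599 and Elf5 547. In the proximal tubule list Miox had 0 counts, Slc34a1 1 and Slc5a2 2, while Ggt1 had 3290, Lrp2 1110, Cubn 1105 and Aqp1 282. The macrophage and dendritic cell list of 13 genes summed to 40.9 to 43.3 CPM in the PBS libraries, 43.5 to 45.0 in the TNF libraries and 24.0 to 25.6 in the ACHP libraries. With TNF 0 of its 10 tested genes passed the test (edgeR and DESeq2; 3 had an unadjusted p under 0.05), and 7 fell with ACHP against TNF, among them Lyz2, a lysozyme of myeloid cells (-2.95, edgeR adjusted p = 1.7e-08). Of all genes, 6.22% were called with TNF and 4.46% fell with ACHP against TNF. C1qa (-3.54), C1qb (-3.07), C1qc (-3.23) and Adgre1 (-3.02) also fell with ACHP against TNF, from low counts. The tested genes that did not pass were Cd14 (-0.04), Cd68 (-0.17) and Fcer1g (-0.31). With ACHP the sum leaned on Cd14 (9.41 CPM), Csf1r (8.26) and Cd68 (4.37), so it understates the fall of the former genes. None of the 13 genes of the list was at 0 counts in all libraries. In bulk RNA, fewer cells of a type and less RNA per cell cannot be told apart. The part of this list in the TNF and ACHP values of Ccl2, Ccl7, Ccl9 and Ccl20 was not tested.

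The neuron list of 12 genes, none of them at 0, summed to 19.8, 101 and 86.1 CPM in the PBS libraries, 43.1, 76.2 and 63.5 in the TNF libraries and 19.5, 17.7 and 18.1 in the ACHP libraries. It therefore ran high in 5 libraries and low in PBS replicate 1 and all ACHP libraries. With ACHP 9 of 12 genes were lower against either group (edgeR), and DESeq2 called 7 lower against TNF and 8 against PBS. Of all genes, 4.46% were lower against TNF and 3.87% against PBS (edgeR). PBS replicates 1 and 2 differ most in that list. Between them Ccl2 was at 16.7 CPM in both and Ccl20 at 24.3 and 24.1. Ccl7 was at 0.28 and 0.78, Ccl5 at 0.35 and 0.56, and Ccl28 at 1.06 and 1.51, all higher in replicate 2. Ccl9 was at 2.26 and 1.78, Ccl25 at 11.2 and 10.3, and Ccl27a at 2.61 and 2.23, all lower in replicate 2. In PBS replicate 3, also high in the neuron list, Ccl7 was at 0.38 CPM, Ccl5 at 0.65 and Ccl28 at 1.41. There Ccl9 was at 2.06 CPM, Ccl25 at 7.96 and Ccl27a at 2.87, the last above replicate 1. These are single libraries, and low counts, such as 4 and 14 for Ccl7 in replicates 1 and 2, carry a large counting error. The T cell list of 7 genes summed to 3.41 to 4.35 CPM with PBS, 2.6 to 3.01 with TNF and 3.91 to 4.72 with ACHP, with Cd3d, Cd3e and Cd3g at 0 counts and most counts from Lck (424) and Trac (128). The neutrophil list of 5 genes summed to 0.61 to 0.71, 0.53 to 0.90 and 0.51 to 0.61 CPM, with Retnlg at 0 counts and most counts from Ly6g (67) and S100a8 (23). The endothelium list summed to 27.7 to 32.9, 27.9 to 32.3 and 22.6 to 27.7 CPM with PBS, TNF and ACHP, and the fibroblast list to 807 to 918, 721 to 744 and 623 to 688. The proximal tubule list gave 44.4 to 48.1, 30.4 to 34.8 and 32.8 to 36.1 CPM, and the collecting duct list 60.3 to 63.7, 44.4 to 50.3 and 49.8 to 53.6.

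**Figure D4:**
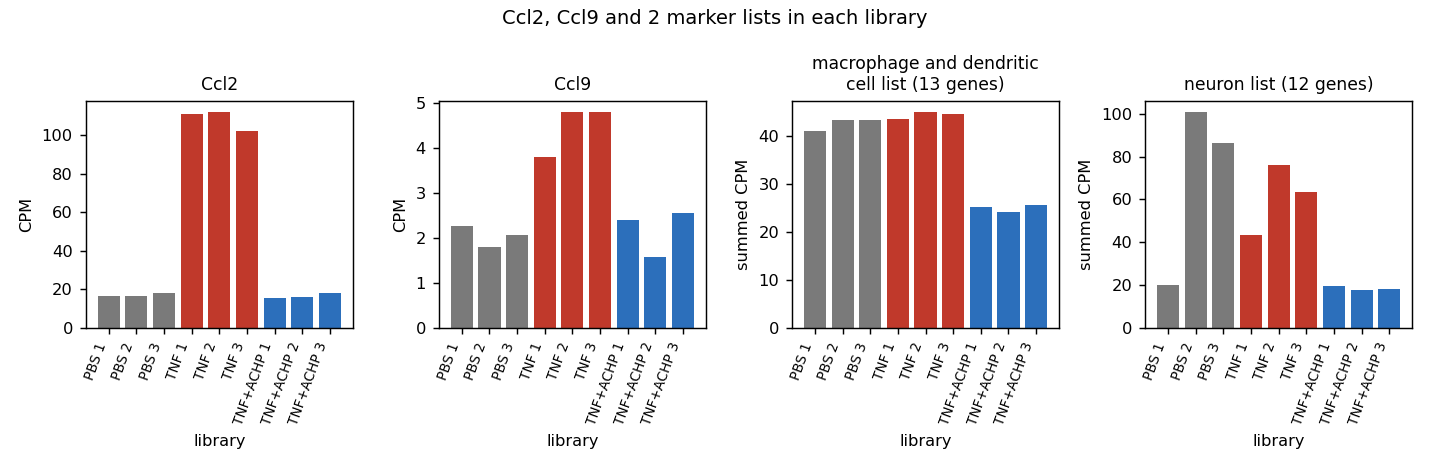
Level of Ccl2 and Ccl9 in CPM and summed CPM of the macrophage and dendritic cell list and of the neuron list (vertical axes, from 0), 1 bar per library. The macrophage list is at 40.9 to 43.3 with PBS, slightly higher with TNF (43.5 to 45.0) and lower with ACHP (24.0 to 25.6), and the neuron list is low in PBS replicate 1 and with ACHP.

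NF-kB pathway genes, whose products carry and then restrain the TNF signal, were measured beside the chemokines. Of 24 tested, 11 rose and 0 fell with TNF, 0 rose and 11 fell with ACHP against TNF, and 3 rose and 0 fell with ACHP against PBS (edgeR, with the same counts from DESeq2; at an unadjusted p under 0.05 these counts of 0 were 0, 0 and 1). Over all genes 3.31% rose and 2.91% fell with TNF, 2.71% and 4.46% with ACHP against TNF, and 2.18% and 3.87% with ACHP against PBS. The medians of the NF-kB list were 0.28, -0.18 and 0.11. Nfkbia, the inhibitor that holds NF-kB in the cytoplasm, went from 37.4 ± 2.14 CPM (SD, n = 3) to 82.7 ± 5.26 with TNF, a log2 fold change of 1.14 (edgeR adjusted p = 6.5e-11). With ACHP it was at 50.0 ± 2.18 CPM, above PBS by 0.42 (edgeR adjusted p = 2.7e-04). Traf1, an adaptor of TNF receptors, went from 7.30 ± 0.51 to 15.9 ± 0.35 CPM with TNF (SD, n = 3, edgeR adjusted p = 1.3e-07) and with ACHP was above PBS by 0.43 (edgeR adjusted p = 0.010). Tnfaip3, the ubiquitin-editing brake A20, rose by 0.95 (edgeR adjusted p = 2.0e-12), and Nfkbie, another NF-kB inhibitor, by 0.96 (edgeR adjusted p = 1.6e-08). Their ACHP against TNF values were both -0.83 (edgeR adjusted p = 1.8e-11 and 9.5e-08). Nfkb2, an NF-kB subunit, was the remaining gene above PBS with ACHP, by 0.22 (edgeR adjusted p = 0.0047). On the same log2 scale the TNF fold changes of Ccl2, Ccl7 and Ccl20 were larger than that of Nfkbia, the largest of the 11.

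Over the 9 libraries, the genes whose level followed a member most closely were found by Pearson's r of log2(CPM + 1) among 10177 genes with a mean of at least 5 CPM. For Ccl2 they were Cxcl10 (r = 0.995), a chemokine for activated T cells, Icam1 (0.992) and Vcam1 (0.990), both leukocyte adhesion molecules. Vcam1 had mean levels of 19.2, 93.0 and 21.1 CPM with PBS, TNF and ACHP. For Ccl20 they were Tnfaip3 (r = 0.995), Birc3 (0.994), an inhibitor of cell death, and Rap1b (0.987), a small GTPase. Rap1b spanned a narrow range, at 379, 425 and 384 CPM. For Ccl25, which hardly varied, the closest were Mrtfb (r = 0.928), Srek1 (0.928) and Nup98 (0.925). These correlations describe libraries that share treatment groups and carry no test.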

How the data were processed

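RNA was sequenced from 9 cultures of mouse kidney cells, 3 per group. The authors deposited raw counts per Ensembl gene, made per the file headers with featureCounts 2.0.1 at default settings on Ensembl 109. The exon coordinates in the file are on GRCm39, while the submitters' processing notes name mm10, STAR, featureCounts and DESeq2. At those defaults, reads that align to several places or overlap several genes are not counted, and strand is ignored. Groups and replicate numbers were taken from the sample titles. Symbols were found for 52029 of 57010 identifiers, holding 99.6% of counts, and totals ran from 14194295 to 20892176 counts per library.

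The model was fitted with edgeR 4.0.16 and limma 3.58.1 (R 4.3.3), using filterByExpr (minimum count 10, 14747 genes kept), TMM factors (0.993 to 1.013), 1 mean per group over all 9 libraries, quasi-likelihood tests, and Benjamini-Hochberg adjustment over all genes tested. The common dispersion of 0.00161 is a coefficient of variation of 4.01% between replicates. A gene was called at an adjusted p under 0.05, and standard errors came from the F statistic. Levels compared between genes were divided by exon length. The fit was first tested on simulated data with known changes.

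The members, the gene lists and the alternatives were chosen with earlier results of these data known. Named genes are all 8 members, up to 4 called genes of largest change per list and comparison, list genes reported for low counts, and the 3 genes most like each member of at least 5 CPM. Alternatives used DESeq2 1.42.0, other scalings and filters, other libraries in the fit, the replicate number as a block, an adjusted p under 0.01, and terms for neural transcripts; PBS replicate 1 as the only PBS library was added after the data were seen. Floors for counts of 0 cover counting error only.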

Additional observations from a re-analysis of the deposited data

How the results depend on the processing

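Of 467 member values over 20 alternatives, 458 kept their side of the threshold and 9 lost a call. The main fit called 4, 4 and 1 of the 8 members in the 3 comparisons, so only those could lose a call. No value gained one. No called value changed direction. Some values of genes that were not called took either sign, such as Ccl25, and Ccl5 for ACHP against TNF. Those lost were Ccl20 for ACHP against PBS with the neural library term (0.34), the neuron covariate (0.39) and PBS replicate 1 alone for PBS (0.34), and without PBS replicate 2 (0.30) or ACHP replicate 3 (0.29), with a range over single left-out libraries of 0.29 to 0.37. They were also Ccl9 for TNF with PBS replicate 1 alone (0.97), Ccl9 for ACHP against TNF with the neural term (-1.29) and the covariate (-1.10), and Ccl7 there with the neural term (-1.45). For ACHP against PBS the neural term and PBS replicate 1 alone for PBS make the same contrast, so those lost calls of Ccl20 are not separate. The cause was not tested. With the replicate number as a block no member's call changed, and the block gave 512 higher and 433 lower genes with TNF, 443 and 732 for ACHP against TNF, and 372 and 616 for ACHP against PBS. Same-numbered libraries deviated together with correlations from -0.14 to 0.16, so the numbers were not taken as pairs. Ccl5 or Ccl28 gave no value where DESeq2 set no adjusted p, and Ccl5 none under the stricter filter.

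The background counts moved more. With TNF, 488 higher and 429 lower genes became 248 and 194 at an adjusted p under 0.01 and 285 and 147 with PBS replicate 1 alone, with left-out ranges of 253 to 496 and 222 to 464. For ACHP against PBS, 321 higher genes became 111 at 0.01, 53 with the neural term, 43 with the covariate, 151 with 6 libraries and 87 with PBS replicate 1 alone. There 570 lower genes became 316, 109 and 92 under the first 3 of these, 862 without a filter and 149 with PBS replicate 1 alone, and left-out ranges were 132 to 419 and 357 to 653. For ACHP against TNF, 400 higher genes became 147 at 0.01, 44 with the neural term, 86 with the covariate and 615 with 6 libraries, and 658 lower genes became 321, 99 and 174, with left-out ranges of 160 to 534 and 390 to 783. The lowest of these ranges came without TNF replicate 1 (253 and 222), without ACHP replicate 3 (132 and 357) and without TNF replicate 2 (160 and 390). Depth limits Ccl5 (5 to 25 counts per library), Ccl28 (15 to 27) and, outside the TNF libraries, Ccl7 (4 to 21).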

Other observations

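Proteases known to trim or cleave CC chemokines also changed. Of 7 tested, 4 rose and 0 fell with TNF, 0 rose and 5 fell with ACHP against TNF, and 1 rose and 3 fell with ACHP against PBS, with medians of 1.09, -0.81 and -0.45 (edgeR). DESeq2 called 3 higher and 0 lower with TNF and 0 higher and 4 lower with ACHP against TNF. At an unadjusted p under 0.05 the counts of 0 were 1 and 0. Over all genes 3.31% rose and 2.91% fell with TNF, 2.71% and 4.46% with ACHP against TNF, and 2.18% and 3.87% with ACHP against PBS. Mmp3, a stromelysin that cleaves Ccl2 and Ccl7, had 0.20 ± 0.23 CPM (SD, n = 3), 3.77 ± 0.65 and 0.099 ± 0.074 in the PBS, TNF and ACHP libraries. Only its TNF libraries reached the filter level of about 0.61 CPM, and its highest count elsewhere was 8. Mmp3 was thus tested because of its TNF level, and it is among the 4 that rose and the 5 that fell. Mmp9, a gelatinase, had a log2 fold change of 1.66 with TNF (edgeR adjusted p = 6.5e-14) and with ACHP remained above PBS by 0.85 (edgeR adjusted p = 2.2e-08). Mmp12, the macrophage elastase, had levels of 10.7 ± 1.26, 22.7 ± 1.52 and 5.87 ± 0.90 CPM (SD, n = 3) in the PBS, TNF and ACHP libraries, with a log2 fold change of -0.88 for ACHP against PBS (edgeR adjusted p = 2.2e-04). Mmp13, a collagenase, gave -1.24 in that comparison (edgeR adjusted p = 0.0011). The macrophage list was lower with ACHP too, and its part in these values was not tested.

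Regulators of chemokine mRNA stability had median log2 fold changes of 0.02, 0.05 and 0.03 in the same order of comparisons. Of 10 tested, 0 rose and 2 fell with TNF, where 3.31% and 2.91% of all genes did (edgeR and DESeq2; 3 were higher at an unadjusted p under 0.05), and the larger of the 2 was -0.23 for Rc3h2 (edgeR adjusted p = 0.011), a repressor of inflammatory mRNAs. With ACHP against TNF 1 fell, Hnrnpd (-0.21, edgeR adjusted p = 0.0067), where 4.46% of all genes did. With ACHP against PBS, 2 rose and 1 fell, where 2.18% and 3.87% of all genes did, and DESeq2 called 1 and 1. Zc3h12a, the RNase regnase-1 that degrades cytokine mRNAs, went from 10.9 ± 1.49 CPM (SD, n = 3) with PBS to 16.3 ± 1.72 with TNF and ACHP, a log2 fold change of 0.58 (edgeR adjusted p = 0.0018). With TNF alone Zc3h12a was at 13.7 ± 0.79 CPM. For it TNF against PBS gave 0.33 (edgeR adjusted p = 0.081) and ACHP against TNF gave 0.26 (edgeR adjusted p = 0.15), so neither step passed the test. Arid5a, which protects some cytokine mRNAs, rose by 0.39 for ACHP against PBS (edgeR adjusted p = 0.049). For Arid5a TNF gave 0.2 (edgeR adjusted p = 0.4), and ACHP against TNF gave 0.19 (edgeR adjusted p = 0.36).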
